A study of Mus musculus with 17 samples.

Results

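Cholesterol and fatty acid synthesis genes were followed across 4 states of CD8 T cells. The set was named gene by gene and held 37 genes: the enzymes from acetyl-CoA through mevalonate and squalene to cholesterol, the SREBP proteins and their regulators, the enzymes that make, desaturate and elongate fatty acids, and 2 sterol exporters. All probes annotated to these symbols were taken from Illumina mouse bead arrays of 45281 probes, and 55 probes matched 34 of the 37 genes. Acat2, Hmgcs1 and Fdft1 had no probe under these symbols. Each gene was read from its brightest probe on average. Of the 34 genes, 32 passed the filter on low values, and Acaca and Abca1 did not.

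The 17 arrays held RNA of CD8 T cells of OT-I mice, C57Bl/6 animals aged 2 to 6 months in which all groups carry a transgenic receptor specific for an ovalbumin peptide. The 4 LSEC-primed samples (4, 7, 14 and 15) came from coculture with liver sinusoidal endothelial cells, and 3 of them carry the cell type name Tpm, which the series title spells out as partial memory T cells, while sample 4 does not. The 3 memory samples (3, 5 and 9) came from spleen 3 months after infection with Listeria monocytogenes carrying ovalbumin. The 5 effector samples, labelled Teff (6, 8, 10, 16 and 17), came from coculture with splenic dendritic cells, except that sample 8 names spleen as its source. The 5 naive samples (1, 2, 11, 12 and 13) came from spleen. Sample values are given in the order of these numbers. The labels do not tell separate animals or cultures apart, so the spread behind each p-value is that between these samples and may be technical.

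Cells build cholesterol from acetyl-CoA by way of mevalonate, farnesyl diphosphate and squalene, and the same acetyl-CoA feeds fatty acid synthesis. When membrane sterol is low, the escort protein SCAP carries SREBP precursors from the endoplasmic reticulum to the Golgi, where they are cut and released as transcription factors, and INSIG proteins hold the complex back when sterol is plentiful. SREBP2 drives mainly the sterol genes and SREBP1 mainly the fatty acid genes, while the oxysterol-sensing LXR receptors drive export of sterol through ABCA1 and ABCG1. Activated CD8 T cells are known to switch this programme on as they grow and divide.

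All levels below are log2 of the background-corrected, quantile-normalised intensity of a probe, and a difference of 1 is 2-fold. Levels of single genes were compared only within a gene, since probes of different genes differ in brightness. Medians and sums over several genes were compared only between arrays, over the same probes, and bright probes weigh most in a sum. A probe counted as above background on an array when it exceeded the mode of that array's log2 intensities by 3 SD of their lower side. Between 21 and 31 of the 34 genes lay above background on 16 of the arrays, and 12 on memory sample 5. The arrays of memory samples 3 (mean intensity 140) and 5 (96.7) were the dimmest, and every other array reached at least 227. Of 6 T cell markers with a probe, 5 lay above background on every array, Cd8b1 and Cd3e among them, but the probe for Cd8a was above background on 1 LSEC-primed array and on no array of the other groups. The sum over the 6 was 39900 to 45400 in LSEC-primed, 41500 to 46300 in memory, 26300 to 31900 in Teff and 34800 to 41300 in naive samples. In Teff cells 3 were lower and 1 higher than in naive cells, and in LSEC-primed cells 3 were higher and 0 lower than in Teff cells. The summed level of 19 endothelial markers ran from 5200 to 7900 in LSEC-primed, from 1490 to 3190 in memory, from 2290 to 2690 in Teff and from 1700 to 2200 in naive samples, with Kdr, Flt1, Flt4 and Gpr182 above background on no array. The sum over 11 stromal markers was 1540 to 2420 in LSEC-primed samples and at most 970 in the other groups. Of 5 erythroid markers, none was above background in LSEC-primed or Teff samples, and the sum reached 5270 to 13100 in memory and 5360 to 30500 in naive samples. None of 7 hepatocyte markers was above background in LSEC-primed, Teff or naive samples. The sum over 7 dendritic cell markers was 486 to 624 in LSEC-primed, 505 to 668 in memory, 462 to 475 in Teff and 478 to 585 in naive samples. Itgax, Flt3, Xcr1, Clec9a and Cd209a were at background in LSEC-primed and Teff samples, and Zbtb46 in Teff samples. Zbtb46 and Siglech were each above background on at least 1 LSEC-primed array, 1 of them on all. Siglech was above background on some but not all Teff arrays. The sum over 9 macrophage markers was 629 to 3740 in LSEC-primed (median 742), 639 to 903 in memory, 559 to 589 in Teff and 659 to 1420 in naive samples (median 694). Of these 9, 2 were above background on no LSEC-primed array, 8 on no memory array, 8 on no Teff array and 2 on no naive array. The part of other cells in the results below was not tested.

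Across the 4 groups, 27 of the 32 genes differed by the limma F test at an adjusted p under 0.05, as did 35.9% of all 16462 named genes tested. The Teff samples stood apart. The median level of the 34 genes on an array was 7.17 ± 0.18 in LSEC-primed (SD, n = 4), 6.90 ± 0.24 in memory (n = 3), 8.68 ± 0.06 in Teff (n = 5) and 7.05 ± 0.14 in naive samples (n = 5). The lowest Teff array, at 8.60, lay above the highest of any other group, at 7.41 in an LSEC-primed sample, while LSEC-primed, memory and naive arrays overlapped. In bulk RNA, a lower level per cell and fewer cells that express a gene cannot be told apart. The median SD of the tested genes within a group was 0.204 in LSEC-primed, 0.309 in memory, 0.185 in Teff and 0.174 in naive samples, against 0.154, 0.20, 0.132 and 0.144 over all named genes in the same order.

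**Figure D1:**
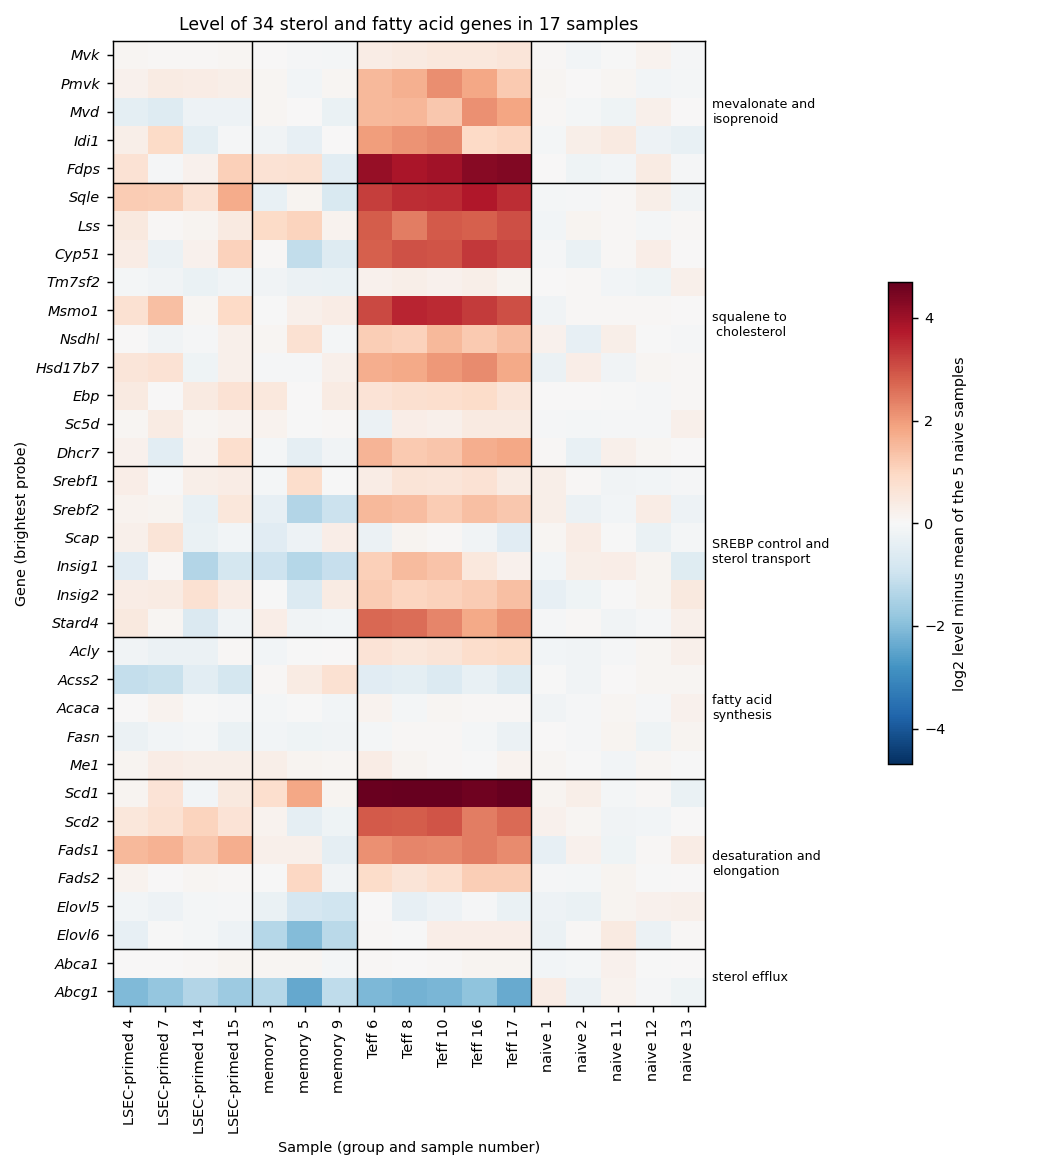
The heatmap gives each gene's log2 level on each of the 17 arrays minus that gene's mean over the 5 naive arrays, with genes ordered by role and arrays by group. Sterol pathway rows are high on the 5 Teff arrays, and Abcg1 and Acss2 do not follow them.

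Effector cells carried more message for nearly the whole sterol pathway than naive cells. Of the 32 genes, 24 were higher and 2 lower in Teff cells, where 26.5% of all named genes were called, 14.2% higher and 12.3% lower. The difference was at least 2-fold for 17 of the higher genes and 1 of the lower, and for 9.32% of all named genes. The median difference was 1.24 on the log2 scale, against -0.00366 over all named genes. By role, 5 of 5 mevalonate and isoprenoid genes, 9 of 10 genes from squalene to cholesterol, 5 of 6 genes of SREBP control and sterol transport, 1 of 4 fatty acid synthesis genes and 4 of 6 desaturation and elongation genes were higher. The 2 lower genes were the acetyl-CoA synthetase Acss2 and the exporter Abcg1. Teff and naive values did not overlap for 24 genes, 22 higher and 2 lower in Teff, against 24.8% of all named genes. With median scaling 21 were higher and 1 lower, and 76.3% of the calls over all named genes were higher in Teff cells, against 53.5% with quantile normalisation. A gene high on the Teff arrays alone could pass the filter, and Mvk and Fads2 were above background on Teff arrays only. A stricter filter asked for levels above the array median on at least 9 arrays and so tested fewer genes. With it 22 were higher and 2 lower. Over the same samples 5 of 5 erythroid markers were lower, 4 of 19 endothelial markers higher and 2 lower, and 1 of 9 macrophage markers lower in Teff than in naive cells.

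LSEC-primed cells fell short of the effector level for most of the set. Against Teff cells, 22 of the 32 were lower and 0 higher by limma, where 17.7% of all named genes were called, 9.51% higher and 8.24% lower, and at an unadjusted p under 0.05 the count higher was also 0. The difference was at least 2-fold for 16 of the 22, and for 5.40% of all named genes. The median difference was -1.06, against 0.0111 over all named genes. Lower were 5 of 5 mevalonate genes, 8 of 10 from squalene to cholesterol, 4 of 6 of SREBP control, 1 of 4 of fatty acid synthesis and 4 of 6 of desaturation and elongation. With median scaling 19 were lower and 0 higher, and 31.2% of the calls over all named genes were higher in LSEC-primed cells, against 53.6% with quantile normalisation. With the stricter filter 20 were lower and 0 higher. Against naive cells, 5 genes were higher (Sqle, Msmo1, Ebp, Fads1 and Scd2), 2 were lower (Acss2 and Abcg1) and 25 were not called, where 15.8% of all named genes were called, 10.0% higher and 5.76% lower. The median difference from naive cells was 0.164, against 0.0122 over all named genes. The comparisons with Teff and with naive cells use the same LSEC-primed arrays, on which 10 of 19 endothelial markers were higher than in Teff (and 1 lower) and 10 than in naive cells.

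**Figure D2:**
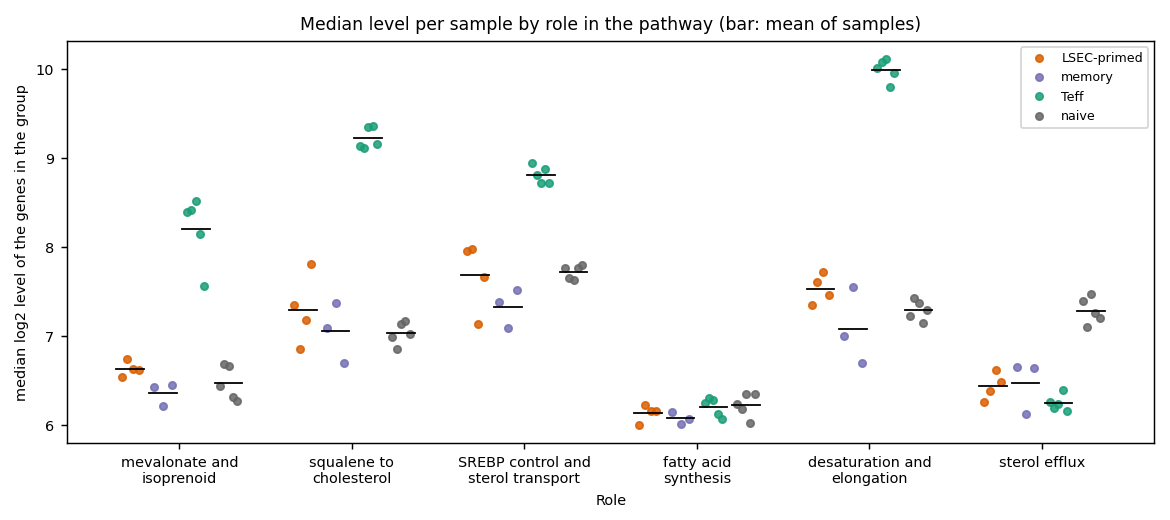
The x axis gives the 6 roles and the y axis the median log2 level of the genes of a role on each array, with 1 point per sample, coloured from LSEC-primed through memory and Teff to naive, and a bar at the group mean. Teff points lie above all others for mevalonate, squalene to cholesterol, SREBP control and desaturation genes, and overlap the other groups for fatty acid synthesis, where 3 of the 5 genes were at or near background so that the median is the level of such a gene whatever Acly and Acss2 did.

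Among the mevalonate and isoprenoid genes, the farnesyl diphosphate synthase Fdps, which makes the precursor shared by squalene and protein prenylation, changed most. Its log2 levels were 8.88, 8.18, 8.42 and 9.33 in the LSEC-primed samples, 8.88, 8.93 and 7.74 in the memory samples, 12.30, 12.04, 12.17, 12.50 and 12.56 in the Teff samples and 8.26, 8.02, 8.08, 8.59 and 8.16 in the naive samples. The Teff samples formed a tight group far above every other array, and the 3 other groups overlapped. The difference was 4.09 for Teff over naive cells (SE 0.23, adjusted p = 9.97e-10), -3.61 for LSEC-primed minus Teff (SE 0.24, adjusted p = 3.14e-08) and -3.80 for memory minus Teff (SE 0.27, adjusted p = 1.66e-08). Between LSEC-primed and naive cells it was 0.48 (adjusted p = 0.278). A second Fdps probe, above background on 13 arrays but with a mean of only 6.44, did not follow, at 0.05 for Teff over naive (adjusted p = 0.846).

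The diphosphomevalonate decarboxylase Mvd closes the mevalonate branch by making isopentenyl diphosphate. It was measured at 6.39, 6.26, 6.64 and 6.63 in the LSEC-primed samples, 6.97, 6.88 and 6.56 in the memory samples, 8.40, 8.42, 8.11, 9.01 and 8.70 in the Teff samples and 6.91, 6.76, 6.66, 7.09 and 6.88 in the naive samples. All Teff samples were above all others, and every LSEC-primed sample lay below every naive sample. Mvd was 3.18-fold higher in Teff than in naive cells (log2 1.67, SE 0.14, adjusted p = 1.38e-07) and lower in LSEC-primed than in Teff cells (log2 difference -2.05, SE 0.15, adjusted p = 8.48e-08). The difference of -0.38 between LSEC-primed and naive cells was not called (adjusted p = 0.133).

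The phosphomevalonate kinase Pmvk works just before Mvd. Its levels were 6.55, 6.74, 6.69 and 6.63 in the LSEC-primed samples, 6.43, 6.22 and 6.45 in the memory samples, 7.86, 8.00, 8.52, 8.15 and 7.56 in the Teff samples and 6.45, 6.37, 6.44, 6.22 and 6.27 in the naive samples. The lowest Teff sample, at 7.56, was above every sample of the other groups, which reached at most 6.74. The Pmvk probe was above background on 2 of 5 naive arrays, so its difference from naive cells is partly against values at background. On these values Pmvk differed by 1.67 between Teff and naive cells (SE 0.13, adjusted p = 3.72e-08) and by -1.37 between LSEC-primed and Teff cells (SE 0.14, adjusted p = 2.1e-06). The isopentenyl diphosphate isomerase Idi1 differed by 1.64 (SE 0.28, adjusted p = 0.000222) and -1.48 (SE 0.30, adjusted p = 0.00179) in the same comparisons. Its Teff samples 6, 8 and 10 lay at 8.41 to 8.64 and samples 16 and 17 at 7.35 and 7.43, and LSEC-primed sample 7 was at 7.32. The mevalonate kinase Mvk was above background in all Teff samples and in no other, so that it was lower in LSEC-primed than in Teff cells by at least 1.21-fold (adjusted p = 0.000464) and at least 1.2-fold higher in Teff than in naive cells (adjusted p = 2.34e-05). Each such bound sets the mean of the bright group against the lowest level that counts as above background on the arrays of the dim group.

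Squalene epoxidase, encoded by Sqle, adds the oxygen that commits squalene to sterol synthesis and is known as a control point of the pathway. Its levels were 8.59, 8.54, 8.06 and 9.12 in the LSEC-primed samples, 7.03, 7.53 and 6.68 in the memory samples, 10.62, 10.85, 10.89, 11.14 and 10.85 in the Teff samples and 7.28, 7.33, 7.43, 7.67 and 7.23 in the naive samples. The 4 groups barely mixed: Teff samples were highest, LSEC-primed samples lay between them and the naive samples, and memory samples lay below the naive range except for sample 5, which was inside it. Sqle was 11.2-fold higher in Teff than in naive cells (log2 3.49, SE 0.18, adjusted p = 2.99e-10). LSEC-primed cells differed by 1.19 from naive (SE 0.19, adjusted p = 0.00028), by -2.30 from Teff (SE 0.19, adjusted p = 2.35e-07) and by 1.49 from memory cells (SE 0.21, adjusted p = 0.000147). A second, dimmer probe of Sqle, above background on 9 arrays, differed by 2.10 between Teff and naive cells (adjusted p = 4.82e-07) but by 0.21 between LSEC-primed and naive cells (adjusted p = 0.726). With cyclic loess in place of quantile normalisation, the difference between LSEC-primed and memory cells was 0.94 (adjusted p = 0.0918).

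Msmo1, the methylsterol monooxygenase that removes methyl groups after lanosterol, also put Teff samples first and most LSEC-primed samples next. It was at 8.04, 8.72, 7.43 and 8.28 in the LSEC-primed samples, 7.31, 7.56 and 7.66 in the memory samples, 10.44, 10.91, 10.84, 10.60 and 10.34 in the Teff samples and 7.16, 7.39, 7.36, 7.37 and 7.32 in the naive samples. LSEC-primed sample 7 was the highest outside the Teff group, and LSEC-primed sample 14 lay just above the highest naive sample. Teff cells were 9.88-fold higher than naive cells (log2 3.31, SE 0.18, adjusted p = 6.02e-10). LSEC-primed cells were lower than Teff cells (log2 difference -2.51, SE 0.19, adjusted p = 9.89e-08) and higher than naive cells by 0.80 (SE 0.19, adjusted p = 0.0081). Scaling arrays to a common median left the last difference at 0.97 with an adjusted p of 0.184.

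Lanosterol synthase, Lss, closes the sterol ring. Its levels were 7.24, 6.86, 6.90 and 7.21 in the LSEC-primed samples, 7.68, 7.84 and 6.95 in the memory samples, 9.63, 9.20, 9.66, 9.59 and 9.80 in the Teff samples and 6.65, 6.92, 6.84, 6.69 and 6.84 in the naive samples. Teff samples again exceeded all others, and the memory samples were above every naive sample, sample 9 only just and samples 3 and 5, the dimmest arrays, by more. Lss differed by 2.79 between Teff and naive cells (SE 0.15, adjusted p = 5.5e-10) and by -2.53 between LSEC-primed and Teff cells (SE 0.16, adjusted p = 1.15e-08). It was the 1 gene of this role called between memory and naive cells, 0.70 higher in memory (SE 0.17, adjusted p = 0.0115). That call ended without memory sample 3 (0.62, adjusted p = 0.0506) or memory sample 5 (0.56, adjusted p = 0.0862), and with median scaling the difference was -0.05 (adjusted p = 0.934).

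Of the 7 other genes of this role, the lanosterol demethylase Cyp51 differed most between Teff and naive cells, by 3.04 (SE 0.23, adjusted p = 2.64e-08), and was lower in LSEC-primed than in Teff cells (log2 difference -2.70, SE 0.24, adjusted p = 6.61e-07). Cyp51 was also called higher in LSEC-primed than in memory cells (0.92, SE 0.28, adjusted p = 0.0357), just inside the threshold. Leaving out LSEC-primed sample 4 or 15 or memory sample 5 or 9 ended that call, with differences of 0.66 to 0.92 and adjusted p of 0.0663 to 0.203, and with cyclic loess it was 0.08 (adjusted p = 0.968). The keto reductase Hsd17b7, the last sterol reductase Dhcr7 and the decarboxylating dehydrogenase Nsdhl were higher in Teff than in naive cells by 1.91, 1.53 and 1.30 (SE 0.16, 0.19 and 0.15). The second probes of Hsd17b7 and Lss were above background on no array, while all 4 probes of Nsdhl were higher in Teff than in naive cells, by 0.80 to 1.43.

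Ebp, the sterol isomerase, departed from this order. Its levels were 8.70, 8.29, 8.70 and 8.95 in the LSEC-primed samples, 8.76, 8.31 and 8.66 in the memory samples, 8.90, 9.04, 9.06, 9.14 and 8.83 in the Teff samples and 8.30, 8.28, 8.24, 8.22 and 8.33 in the naive samples. LSEC-primed sample 7 lay among the naive samples, samples 4 and 14 lay between the naive and the Teff samples, and sample 15 was inside the Teff range. Ebp was higher by 0.72 in Teff than in naive cells (SE 0.11, adjusted p = 6.74e-05), by 0.39 in LSEC-primed than in naive cells (SE 0.12, adjusted p = 0.0334), and the difference of -0.33 between LSEC-primed and Teff cells was not called (adjusted p = 0.0662). The call over naive cells lay just inside the threshold, and it was lost when LSEC-primed sample 4, 14 or 15 or naive sample 1, 2, 11 or 12 was left out (differences of 0.29 to 0.40, adjusted p = 0.0545 to 0.131). The sterol reductase Tm7sf2 was near background throughout, at 6.39, 6.44, 6.38, 6.45 and 6.31 in Teff and 6.19, 6.21, 6.05, 5.97 and 6.43 in naive samples, which overlapped. Its difference of 0.22 lay at the threshold (adjusted p = 0.0458) and lost its call when any of 12 samples was left out (Teff 6, 8, 10 or 16, naive 1, 2, 11 or 12, LSEC-primed 4, 7 or 15, or memory 9), at 0.17 to 0.24 with adjusted p of 0.0506 to 0.131. The sterol desaturase Sc5d was not called in Teff against naive cells (0.22, adjusted p = 0.24).

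Sequences before the start sites of these genes are shown because many sterol genes are known to depend on SREBP together with the CCAAT-binding factor NF-Y and the GC-box-binding factor Sp1. RefSeq promoters of build GRCm38.p6, from 250 bases before to 50 bases after the start, were available for 29 of the 37 genes (38 start sites). The CCAAT box, CCAAT on either strand, occurred in 17 of the 18 genes called higher in Teff over naive cells (94.4%), in 6 of the other 11 genes (54.5%), in 42.3% of 13186 genes tested on the arrays and in 41.1% of all 27025 genes of the table. The other 11 are not all genes measured and not raised. They include Hmgcs1 and Acat2, which had no probe, and Acaca and Abca1, which did not pass the filter. The GC box, GGGCGG on either strand, occurred in 17 of these 18 genes (94.4%), in 7 of the 11 (63.6%), and in 56.9% and 38.2% of the same backgrounds. A core SREBP site, TCACNCCAC on either strand, was found in 1 of the 29 genes, Hmgcs1, which had no probe, and in 1.42% of tested genes. The shorter CACNCCAC inside it was found in 3 of 29 (Hmgcs1, Acat2 and Insig1), in 1 of the 18 (5.56%), in 2 of the 11 (18.2%) and in 7.38% of tested genes. Those 2 of the 11, Hmgcs1 and Acat2, had no probe. The E-box CACGTG, a palindrome, lay in 7 of 29 (24.1%), in 3 of the 18 genes higher in Teff cells (16.7%) and 4 of the 11 others (36.4%), and in 10.1% of tested genes. A match is a string of letters and not a tested site, and no test was made of these shares. A gene without a match may still hold a site of other spelling or outside the stretch searched. Of the 6 sequences below, 5 hold CCAAT boxes (capitals, CCAAT or its reverse ATTGG), and that of Fads2 is shown for contrast. Msmo1 (chr8:64733579-64733828 on the minus strand) has 3 of them, at -160, -96 and -55, Idi1 (chr13:8885356-8885605 on the plus strand) has 2, at -45 and -14, Cyp51 (chr5:4104698-4104947 on the minus strand) has 1 at -29, and Insig1 (chr5:28071162-28071411 on the plus strand) has 1 at -216 beside the reverse of CACNCCAC at -9, also in capitals. Acss2 (chr2:155517793-155518042 on the plus strand), which was lower in Teff cells, also has 1, at -73, and Fads2 (chr19:10101504-10101753 on the minus strand) is the gene higher in Teff cells that has none. Each line ends at the base before the start.
Msmo1: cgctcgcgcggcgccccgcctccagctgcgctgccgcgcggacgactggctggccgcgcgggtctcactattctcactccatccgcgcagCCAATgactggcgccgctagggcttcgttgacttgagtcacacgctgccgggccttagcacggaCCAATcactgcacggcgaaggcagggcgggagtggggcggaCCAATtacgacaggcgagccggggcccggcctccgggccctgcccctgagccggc
Idi1: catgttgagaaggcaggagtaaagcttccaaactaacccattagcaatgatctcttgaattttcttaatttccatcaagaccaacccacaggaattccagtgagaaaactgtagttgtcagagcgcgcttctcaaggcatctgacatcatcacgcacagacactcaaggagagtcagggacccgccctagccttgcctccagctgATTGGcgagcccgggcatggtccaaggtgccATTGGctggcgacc
Cyp51: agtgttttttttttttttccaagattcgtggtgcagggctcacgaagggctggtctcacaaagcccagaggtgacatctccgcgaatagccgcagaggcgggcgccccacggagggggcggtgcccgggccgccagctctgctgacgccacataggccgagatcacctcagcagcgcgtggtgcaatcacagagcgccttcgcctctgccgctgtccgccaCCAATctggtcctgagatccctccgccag
Insig1: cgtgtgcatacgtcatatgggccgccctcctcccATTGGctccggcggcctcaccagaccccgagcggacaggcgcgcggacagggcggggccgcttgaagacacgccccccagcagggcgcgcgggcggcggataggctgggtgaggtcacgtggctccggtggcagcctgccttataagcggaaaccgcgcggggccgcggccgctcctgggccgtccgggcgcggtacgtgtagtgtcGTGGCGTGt
Acss2: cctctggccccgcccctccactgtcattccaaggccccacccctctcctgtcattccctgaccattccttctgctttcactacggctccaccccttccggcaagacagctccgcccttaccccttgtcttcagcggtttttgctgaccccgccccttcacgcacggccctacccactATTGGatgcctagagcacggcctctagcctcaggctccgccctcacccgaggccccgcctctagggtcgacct
Fads2: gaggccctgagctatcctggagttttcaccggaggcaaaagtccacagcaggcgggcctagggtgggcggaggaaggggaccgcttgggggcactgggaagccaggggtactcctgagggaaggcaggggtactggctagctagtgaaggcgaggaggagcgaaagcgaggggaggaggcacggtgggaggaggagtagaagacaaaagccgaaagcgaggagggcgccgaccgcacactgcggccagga

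Of the genes that control SREBP or move sterol, the cholesterol carrier Stard4, a soluble transfer protein, changed most. It was at 8.25, 7.91, 7.11 and 7.62 in the LSEC-primed samples, 8.11, 7.63 and 7.67 in the memory samples, 10.51, 10.41, 10.08, 9.57 and 9.92 in the Teff samples and 7.74, 7.85, 7.65, 7.72 and 8.02 in the naive samples. Teff samples stood above all others, with samples 6, 8 and 10 above samples 16 and 17, and the 3 other groups overlapped. Stard4 differed by 2.30 between Teff and naive cells (SE 0.20, adjusted p = 1.29e-07) and by -2.37 between LSEC-primed and Teff cells (SE 0.21, adjusted p = 5.62e-07).

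Srebf2 encodes SREBP2 itself. Its levels were 7.69, 7.62, 7.16 and 8.02 in the LSEC-primed samples, 7.14, 6.14 and 6.51 in the memory samples, 9.04, 8.94, 8.69, 8.94 and 8.78 in the Teff samples and 7.79, 7.25, 7.40, 7.85 and 7.25 in the naive samples. Teff samples were highest, LSEC-primed and naive samples shared 1 range, and memory samples were lowest, with sample 5 at background. The difference was 1.37 for Teff over naive (SE 0.19, adjusted p = 2.14e-05), -1.25 for LSEC-primed minus Teff (SE 0.20, adjusted p = 0.000202), 1.03 for LSEC-primed minus memory (SE 0.22, adjusted p = 0.00471) and -0.91 for memory minus naive (SE 0.21, adjusted p = 0.00867). Without memory sample 5 the last was -0.72 (adjusted p = 0.0696), and cyclic loess left the LSEC-primed to memory difference at 0.35 (adjusted p = 0.642). A second Srebf2 probe of similar brightness gave 0.74 for Teff over naive (adjusted p = 6.11e-05) and -1.20 for LSEC-primed minus Teff (adjusted p = 1.55e-06), but -0.06 against memory (adjusted p = 0.847) and -0.47 against naive cells (adjusted p = 0.0115), where the brightest probe gave 0.12 and no call. Srebf1, which encodes SREBP1, was higher in Teff than in naive cells by 0.51 (SE 0.15, adjusted p = 0.0157), with overlapping values, and its LSEC-primed minus Teff difference of -0.28 was not called (adjusted p = 0.323). The Srebf1 probe was above background on all 5 Teff arrays but on only 1 of 5 naive arrays. Its difference from naive cells is therefore largely against values at background. The F test over the 4 groups did not call Srebf1 (adjusted p = 0.0742).

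Message for the retention proteins INSIG1 and INSIG2, both known to hold back SREBP processing, was higher in Teff cells as well. Insig2 was at 8.01, 8.06, 8.39 and 7.99 in the LSEC-primed samples, 7.66, 7.03 and 8.07 in the memory samples, 8.86, 8.68, 8.75, 8.84 and 9.08 in the Teff samples and 7.28, 7.46, 7.63, 7.81 and 8.13 in the naive samples. Its Teff samples lay above all others, LSEC-primed samples fell inside the upper naive range or just above it, and LSEC-primed sample 14 was the highest of its group. Insig2 differed by 1.18 between Teff and naive cells (SE 0.18, adjusted p = 5.82e-05) and by -0.73 between LSEC-primed and Teff cells (SE 0.19, adjusted p = 0.0118), and with median scaling the LSEC-primed difference was -0.999 and not called (adjusted p = 0.155). Insig1 differed by 0.93 (SE 0.27, adjusted p = 0.0185) between Teff and naive cells, a call that ended without Teff sample 8 (0.79, adjusted p = 0.0565), Teff sample 10 (0.82, adjusted p = 0.0536) or naive sample 13 (0.78, adjusted p = 0.0567). It was lower in LSEC-primed than in Teff cells (log2 difference -1.60, SE 0.29, adjusted p = 0.00082). Teff samples 6, 8 and 10 were at 9.55 to 9.94, and samples 16 and 17 at 8.93 and 8.67, within or near the naive values of 7.86 to 8.77. The dimmer Insig1 probes gave 1.09 and 0.99 for Teff over naive (adjusted p = 1.12e-05 and 1.1e-06). Scap, the SREBP escort, was not called in any comparison, at -0.16 for Teff minus naive and 0.26 for LSEC-primed minus Teff, although a dimmer Scap probe differed by -0.40 for Teff minus naive (adjusted p = 0.0393).

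Of the fatty acid synthesis genes, only Acly and Acss2 lay well above background. Between Teff and naive cells they differed in opposite directions with quantile normalisation. ATP citrate lyase, Acly, which makes cytosolic acetyl-CoA from citrate and so serves both pathways, was bright on every array. Its levels were 11.57, 11.45, 11.44 and 11.77 in the LSEC-primed samples, 11.58, 11.69 and 11.74 in the memory samples, 12.38, 12.25, 12.32, 12.55 and 12.62 in the Teff samples and 11.59, 11.57, 11.68, 11.81 and 11.98 in the naive samples. All Teff samples exceeded all others, and the other 3 groups overlapped. Acly was 1.62-fold higher in Teff than in naive cells (log2 0.70, SE 0.10, adjusted p = 2.38e-05) and lower in LSEC-primed than in Teff cells (log2 difference -0.87, SE 0.10, adjusted p = 1.03e-05). Median scaling ended both calls (0.98, adjusted p = 0.19, and -1.02, adjusted p = 0.281), and set LSEC-primed above memory cells by 1.75 (adjusted p = 0.0361), where quantile normalisation gave -0.12.

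Acss2, which makes acetyl-CoA from acetate, ran against the rest. It was at 8.96, 9.05, 9.60 and 9.26 in the LSEC-primed samples, 10.14, 10.45 and 10.81 in the memory samples, 9.55, 9.60, 9.45, 9.74 and 9.47 in the Teff samples and 10.04, 9.92, 10.10, 10.16 and 10.16 in the naive samples. Memory samples 5 and 9 were highest and memory sample 3 was inside the naive range, Teff samples lay below every naive sample, and 3 of the 4 LSEC-primed samples lay below every Teff sample. Acss2 was lower in LSEC-primed than in naive cells (log2 difference -0.86, SE 0.13, adjusted p = 0.00023) and than in memory cells (log2 difference -1.25, SE 0.15, adjusted p = 2.74e-05). It differed by -0.52 between Teff and naive cells (SE 0.13, adjusted p = 0.00506), and by 0.91 between memory and Teff cells (SE 0.14, adjusted p = 0.00015), the 1 gene of the set higher in memory than in Teff cells. Median scaling ended all 4 calls, giving -0.81, 0.46, -0.26 and -1.01 in that order (adjusted p = 0.558, 0.688, 0.831 and 0.226), and so turned the direction of both memory comparisons. A second, dim Acss2 probe was above background on 2 arrays and not called.

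The remaining genes of fatty acid synthesis were at or near background, so the arrays do not tell whether they changed. Fasn, the fatty acid synthase, was above background in 1 Teff and 1 naive sample and differed by -0.07 between these groups (adjusted p = 0.718). The malic enzyme Me1, a source of NADPH, was above background on no array, and its difference of 0.25 between LSEC-primed and naive cells lay just outside the threshold (adjusted p = 0.0527). Acaca, the acetyl-CoA carboxylase that commits acetyl-CoA to fatty acids, was likewise above background on no array.

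The largest difference of the set was that of a desaturase. Scd1 and Scd2 encode stearoyl-CoA desaturases, which make monounsaturated fatty acids. Scd1 was at 6.45, 6.97, 6.21 and 6.79 in the LSEC-primed samples, 7.14, 8.17 and 6.48 in the memory samples, 10.97, 11.06, 11.01, 10.90 and 11.09 in the Teff samples and 6.47, 6.60, 6.24, 6.38 and 6.01 in the naive samples. The 5 Teff samples lay close together and far above all others, and memory sample 5 was the highest of the rest. The probe was above background on 3 of 4 LSEC-primed, all memory and Teff and 2 of 5 naive arrays, so the differences from naive and LSEC-primed cells are partly against values at background. On these values Scd1 was 25.4-fold higher in Teff than in naive cells (log2 4.67, SE 0.23, adjusted p = 2.12e-10) and lower in LSEC-primed than in Teff cells (log2 difference -4.40, SE 0.24, adjusted p = 2.87e-09). It was called higher in memory than in naive cells (0.92, SE 0.26, adjusted p = 0.0294). That call ended without memory sample 5 (0.49, adjusted p = 0.192), naive sample 11 (0.90, adjusted p = 0.0576) or naive sample 13 (0.83, adjusted p = 0.0655).

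For Scd2 the levels were 6.87, 7.05, 7.36 and 6.96 in the LSEC-primed samples, 6.49, 5.90 and 6.12 in the memory samples, 9.20, 9.16, 9.27, 8.72 and 8.98 in the Teff samples and 6.52, 6.43, 6.14, 6.21 and 6.33 in the naive samples. Teff samples were highest, every LSEC-primed sample was above every naive sample, and no memory sample was above background. Of the 5 naive samples, 3 were above background. Scd2 differed by 2.74 between Teff and naive cells (SE 0.13, adjusted p = 1.64e-10), by -2.01 between LSEC-primed and Teff cells (SE 0.14, adjusted p = 3.56e-08) and by 0.73 between LSEC-primed and naive cells (SE 0.14, adjusted p = 0.00129). LSEC-primed cells exceeded memory cells by at least 1.2-fold (adjusted p = 0.000918), and in memory cells it was at least 4.81-fold lower than in Teff cells (adjusted p = 6.04e-10). With cyclic loess the LSEC-primed to memory difference was 0.27 (adjusted p = 0.672).

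Fads1, a front-end desaturase of polyunsaturated fatty acid synthesis, was the gene of the set raised most in LSEC-primed over naive cells. Its levels were 10.22, 10.34, 9.97 and 10.41 in the LSEC-primed samples, 8.94, 8.95 and 8.30 in the memory samples, 10.84, 11.02, 10.96, 11.10 and 10.94 in the Teff samples and 8.31, 8.93, 8.50, 8.75 and 9.05 in the naive samples. Teff samples were highest and LSEC-primed samples came next, with a gap to all memory and naive samples, which overlapped. LSEC-primed cells were 2.87-fold higher than naive cells (log2 1.52, SE 0.15, adjusted p = 3.66e-06), higher than memory cells by 1.50 (SE 0.18, adjusted p = 2.03e-05) and lower than Teff cells (log2 difference -0.74, SE 0.15, adjusted p = 0.00254). Teff cells were higher than naive cells by 2.26 (SE 0.15, adjusted p = 4.62e-09). Median scaling left the difference from Teff cells at -0.96 with an adjusted p of 0.17. The second Fads1 probe was above background on no array.

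Fads2, the desaturase that works before Fads1, was above background in the 5 Teff samples and in no other. It was lower in LSEC-primed than in Teff cells by at least 1.46-fold (adjusted p = 0.00301), at least 1.44-fold higher in Teff than in naive cells (adjusted p = 0.000438) and at least 1.06-fold lower in memory than in Teff cells (adjusted p = 0.0203). The last call ended without memory sample 3 or 9 or Teff sample 16 (adjusted p = 0.0509 to 0.125), and a dimmer Fads2 probe differed by 0.25 between Teff and naive cells (adjusted p = 0.0828). The elongases differed in another way. Elovl6, which lengthens palmitate to stearate, was at 7.83, 8.17, 8.09 and 7.96 in the LSEC-primed samples, 6.86, 6.15 and 6.92 in the memory samples, 8.26, 8.16, 8.49, 8.52 and 8.49 in the Teff samples and 7.94, 8.27, 8.61, 7.92 and 8.26 in the naive samples. Memory samples alone were low, and the other 3 groups overlapped. Elovl6 was lower in memory than in naive cells (log2 difference -1.56, SE 0.18, adjusted p = 1.23e-05) and than in Teff cells (log2 difference -1.74, SE 0.18, adjusted p = 1.05e-06), and higher in LSEC-primed than in memory cells by 1.37 (SE 0.18, adjusted p = 8.06e-05). With cyclic loess the LSEC-primed to memory difference was 0.59 (adjusted p = 0.0871), and a dimmer Elovl6 probe was not called in any comparison. Elovl5, an elongase of polyunsaturated fatty acids, was lower in memory than in naive cells (log2 difference -0.68, SE 0.15, adjusted p = 0.0053). That call ended with cyclic loess (-0.46, adjusted p = 0.104) and with only the 2 groups fitted (adjusted p = 0.0511). Neither elongase was called between Teff and naive cells (0.19 for Elovl6 and -0.19 for Elovl5).

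**Figure D3:**
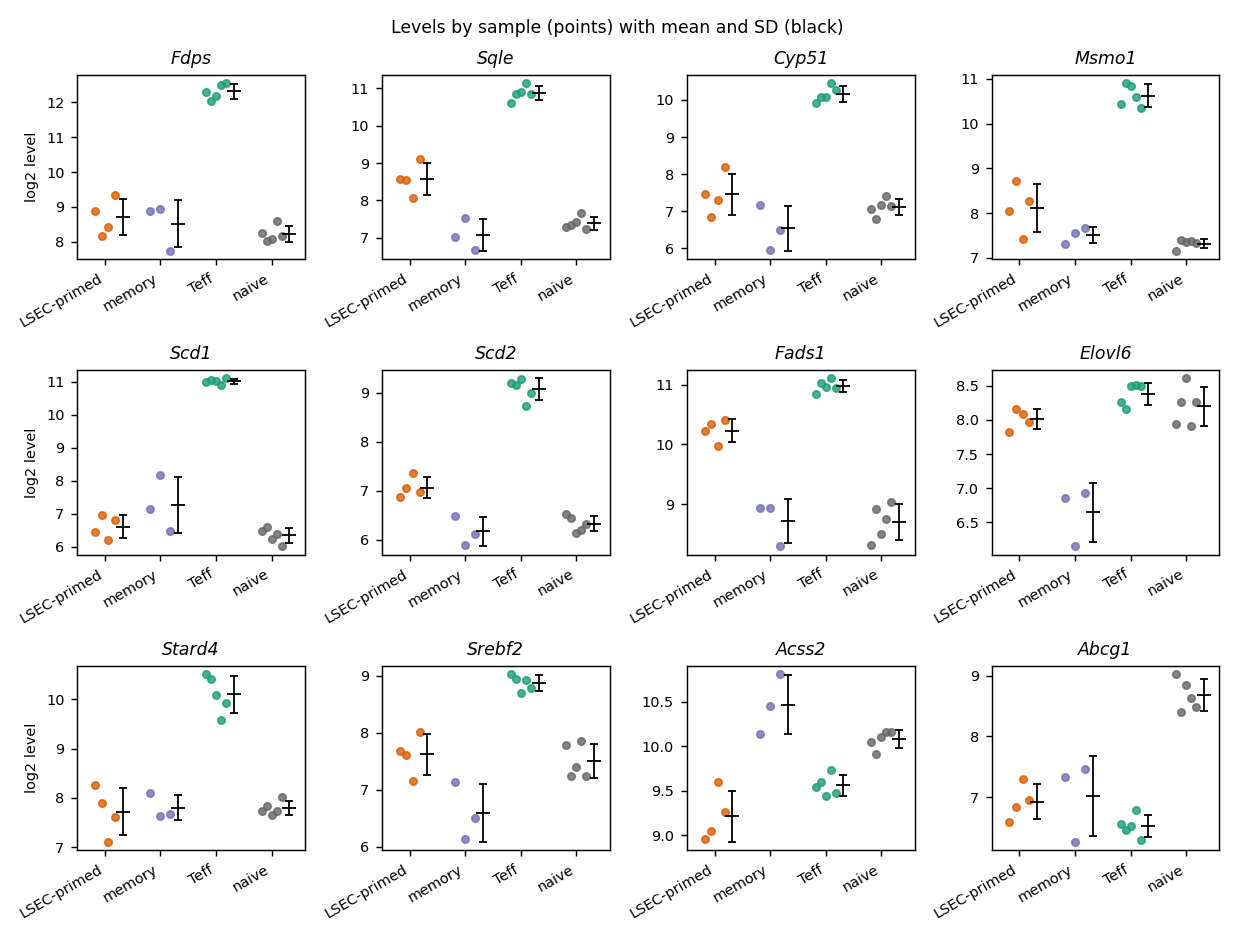
For selected genes, each panel plots the log2 level of every sample, 1 point per array, by group from LSEC-primed through memory and Teff to naive, with the group mean and SD beside them. Fads1 in LSEC-primed samples runs from 9.97 to 10.41, between naive and Teff samples, and Abcg1 is highest in naive samples.

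The sterol exporter Abcg1, an LXR target, was lower in all 3 other groups than in naive cells. Its levels were 6.60, 6.85, 7.30 and 6.96 in the LSEC-primed samples, 7.34, 6.27 and 7.47 in the memory samples, 6.56, 6.47, 6.53, 6.79 and 6.30 in the Teff samples and 9.03, 8.40, 8.85, 8.64 and 8.49 in the naive samples. Every naive sample was above every sample of the other groups, and the Teff samples were lowest on average. Relative to naive cells, Abcg1 differed by -1.75 in LSEC-primed cells (SE 0.21, adjusted p = 1.98e-05), by -1.65 in memory cells (SE 0.23, adjusted p = 0.000102) and by -2.15 in Teff cells (SE 0.20, adjusted p = 2.82e-07). LSEC-primed cells differed from Teff cells by 0.40 (adjusted p = 0.288) and memory from Teff cells by 0.50 (adjusted p = 0.139), neither of them called. Without memory sample 5, memory cells were higher than Teff cells by 0.93 (adjusted p = 0.00192). The 3 differences from naive cells share the naive arrays. The partner exporter Abca1 was above background on no array.

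In memory cells the set was again far below the effector level. Against Teff cells, 25 of the 32 genes were lower and 1 higher, where 26.1% of all named genes were called, 12.0% higher and 14.1% lower. The difference was at least 2-fold for 19 of the lower genes, and for 10.3% of all named genes. With median scaling 26 were lower and 0 higher, and 3.63% of the calls over all named genes were higher in memory cells, against 45.9% with quantile normalisation. With the stricter filter 23 were lower and 1 higher. Over the same samples 3 of 5 erythroid markers were higher in memory than in Teff cells, and of 19 endothelial markers 1 was higher and 3 lower. The median difference was -1.69, against 0.0111 over all named genes. All 5 mevalonate genes, 9 of 10 from squalene to cholesterol, 4 of 6 of SREBP control, 1 of 4 of fatty acid synthesis and all 6 of desaturation and elongation were lower. Sqle (-3.79, SE 0.20), Fdps (-3.80, SE 0.27) and Scd1 (-3.74, SE 0.26) differed most. The calls of Ebp (-0.42, adjusted p = 0.0213) and Elovl5 (-0.49, adjusted p = 0.0236) ended when single samples were left out, for Ebp memory sample 5 (-0.30, adjusted p = 0.149) or Teff sample 16 (-0.38, adjusted p = 0.0508), and for Elovl5 memory sample 5 or 9 or Teff sample 6 or 16 (-0.37 to -0.46, adjusted p = 0.0526 to 0.116).

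Against naive cells, 2 genes were higher in memory cells (Scd1 and Lss), 5 were lower (Srebf2, Insig1, Elovl5, Elovl6 and Abcg1) and 25 were not called, where 13.6% of all named genes were called, 6.68% higher and 6.94% lower. The median difference was -0.0503, against 0.0103 over all named genes. Insig1 differed by -1.13 (SE 0.32, adjusted p = 0.0263), a call lost without memory sample 5 or naive sample 2, 11 or 12 (-1.05 to -1.10, adjusted p = 0.0518 to 0.108). Without memory sample 5, 4 genes were called in all. With median scaling 0 were higher and 6 lower, and 3.34% of the calls over all named genes were higher in memory cells, against 49.0% with quantile normalisation. Erythroid markers, high in both groups, did not differ between memory and naive cells by limma in any of 5 genes.

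LSEC-primed cells were higher than memory cells for 7 genes (Sqle, Cyp51, Srebf2, Scd2, Fads1, Elovl5 and Elovl6) and lower for 1, Acss2, where 15.5% of all named genes were called, 9.58% higher and 5.93% lower. The median difference was 0.152, against 0.0118 over all named genes, and 24 genes were not called. Elovl5 differed by 0.55 (SE 0.16, adjusted p = 0.0252), and this call ended without memory sample 5 or 9 or LSEC-primed sample 14 or 15 (0.43 to 0.54, adjusted p = 0.0509 to 0.105). Desaturation and elongation genes made up 4 of the 7. With median scaling 9 were higher and 0 lower, and 97.4% of the calls over all named genes were higher in LSEC-primed cells, against 61.7% with quantile normalisation. With cyclic loess 1 was higher and 1 lower, and Scd2, Elovl5 and Elovl6 were among the genes that lost their call (adjusted p = 0.672, 0.486 and 0.0871). Over the same samples 12 of 19 endothelial markers were higher in LSEC-primed than in memory cells and 3 of 5 erythroid markers were lower.

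**Figure D4:**
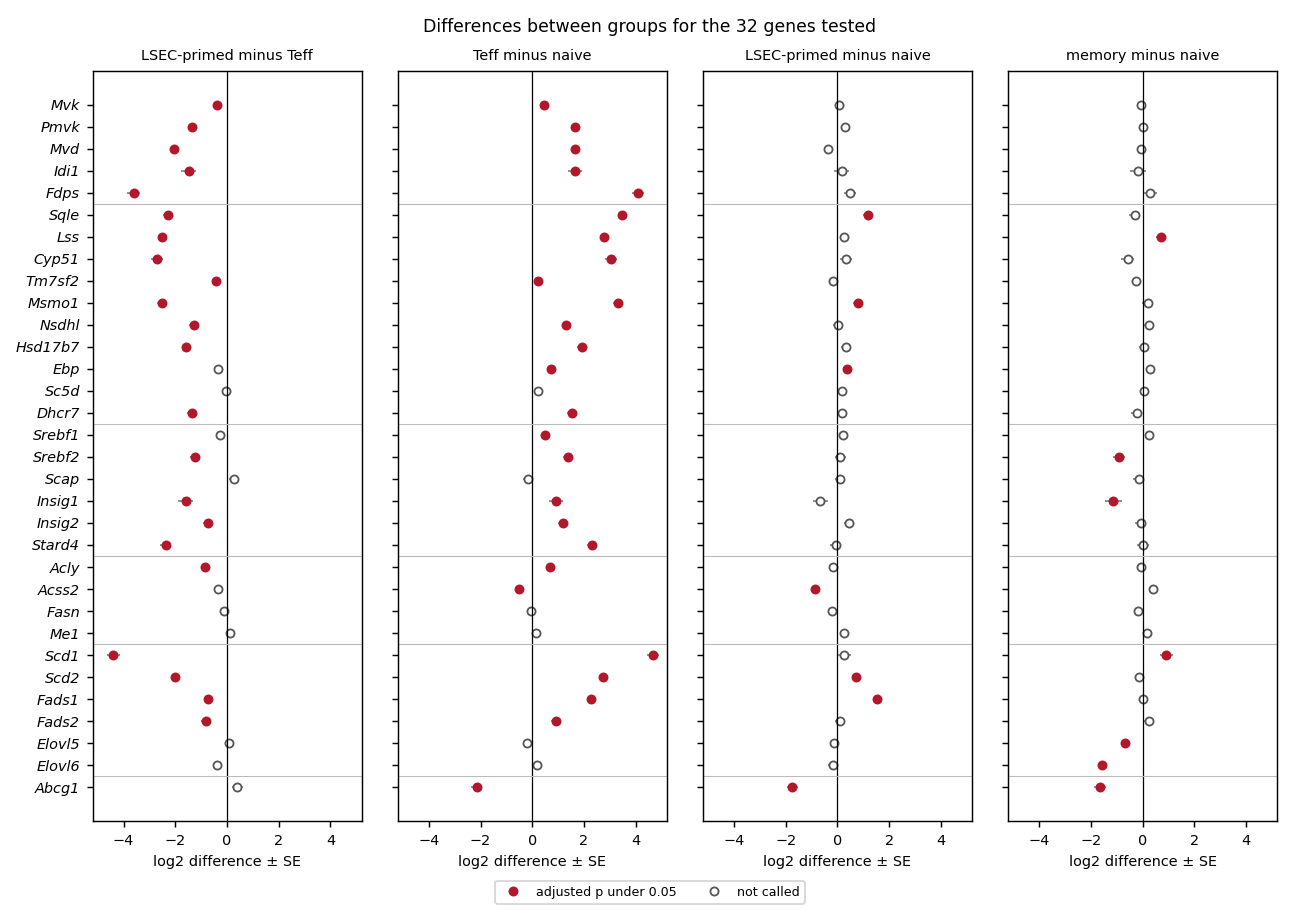
The 4 panels give the log2 difference of each of the 32 tested genes for LSEC-primed minus Teff, Teff minus naive, LSEC-primed minus naive and memory minus naive, with bars of 1 SE, filled points for genes called by limma and open points for the others, and genes ordered by role. In the Teff minus naive panel Scd1, at 4.67, is farthest to the right and Abcg1, at -2.15, farthest to the left.

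A further 42 genes of the same pathways, chosen with these results known, had 37 with a probe and 36 tested. In LSEC-primed against naive cells 8 of the 36 were higher and 2 lower, where 10.0% and 5.76% of all named genes were, and the median difference of the list was -0.00835. In LSEC-primed against Teff cells 3 were higher and 9 lower, where 9.51% and 8.24% of all named genes were (median -0.0398), and in Teff against naive cells 11 were higher and 2 lower, where 14.2% and 12.3% of all named genes were (median 0.0499). Tmem97, a sterol-regulated membrane protein, was higher in Teff than in naive cells by 2.88 (SE 0.21, adjusted p = 2.47e-08) and in LSEC-primed than in naive cells by 1.00 (SE 0.23, adjusted p = 0.00599). The mitochondrial citrate carrier Slc25a1 (1.83, SE 0.19) and the acetoacetyl-CoA synthetase Aacs (1.58, SE 0.13) were next in Teff over naive cells, and the lipid transporter Abca7 (-0.57, SE 0.13) and the farnesyltransferase subunit Fntb (-0.37, SE 0.12) were lower. The fatty acyl-CoA synthetase Acsl3 was lower in LSEC-primed than in naive cells (log2 difference -1.83, SE 0.14, adjusted p = 2.05e-07) and than in Teff cells (log2 difference -2.04, SE 0.14, adjusted p = 3.56e-08). The phosphatidate phosphatase Lpin1 was also lower in LSEC-primed than in naive cells (-0.67, SE 0.11), and the dehydratase Hacd1 (0.80, SE 0.15) and the fatty acyl-CoA synthetase Acsl5 (0.67, SE 0.09) were higher.

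Between LSEC-primed and memory cells 10 of the 36 were higher and 3 lower, where 9.58% and 5.93% of all named genes were, led by Fntb (1.80, SE 0.14) and Hacd1 (1.33, SE 0.17), with Lpin1 lowest (-1.55, SE 0.13). In memory against naive cells 5 were higher and 5 lower, where 6.68% and 6.94% of all named genes were, with Abca7 highest (1.02, SE 0.14) and Fntb (-1.63, SE 0.14) and Acsl3, which was above background on no memory array, among the lower genes. In memory against Teff cells 3 were higher and 12 lower, where 12.0% and 14.1% of all named genes were. Lowest were Tmem97 (-2.71, SE 0.25), Acsl3 (-2.61, SE 0.15) and Slc25a1 (-2.12, SE 0.22), and Abca7 was highest (1.60, SE 0.14).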

How the data were processed

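Biotin-labelled cRNA of each sample was hybridised to 1 Illumina mouse bead array, per the labels. The deposited values are linear intensity per probe, in 1 table not normalised between arrays, per the file headers, and a second table of intensity values whose columns share 1 distribution, which was used as an alternative. Image software is not given in the sources used here, and 3 columns that match no label were not analysed here. The non-normalised intensities were background corrected (normexp, offset 50), quantile normalised and set to log2 in limma 3.58.1 under R 4.3.3. Probes above the array median on at least 3 arrays were kept, and the brightest probe stood for each symbol of the platform annotation, giving 23699 features, 16462 of them named. One linear model with a mean per group was fitted over all features (limma with eBayes), Benjamini-Hochberg adjustment ran over all of them, and a gene was called under 0.05. Where a group had no array above background, its fold is a lower bound, given as "at least". The steps were tested on simulated data in which each gene had the same spread in all groups. Memory samples spread more than the others here, so that test does not bear on the memory calls. The genes, the lists and the rule for genes given with sample values (the 3 with the lowest F-test p in each role, those called against most of their role, and those at the threshold) were chosen with earlier results of these data known, and Idi1, Insig1 and the elongases were added after their values were seen. Promoter sequences are those of RefSeq, build GRCm38.p6. The number of arrays limits the precision.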

Additional observations from a re-analysis of the deposited data

Results flagged for a closer look

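Among 96 sets of values (a gene in a group of 4 or 5 samples), 3 had 1 sample far from the others of its group (3.12%), where chance gives about 1 in 20. Insig2 was 8.39 in LSEC-primed sample 14, and the nearest other LSEC-primed sample was 8.06. Srebf1 was lowest in LSEC-primed sample 7, at 6.24, which is below background on that array, and the nearest other sample was 6.55. Sc5d was 6.24 in naive sample 13, with the nearest naive sample at 5.94, and all 5 values were below background.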

How the results depend on the processing

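No paired analysis was possible because the groups share no sample numbers. The counts called were 7 for LSEC-primed minus naive (6 to 8 when 1 sample was left out at a time), 22 for LSEC-primed minus Teff (22 to 23), 8 for LSEC-primed minus memory (6 to 9), 26 for Teff minus naive (24 to 26), 7 for memory minus naive (4 to 8), 26 for memory minus Teff (23 to 26) and 27 over the 4 groups (26 to 28). Counts moved by over 1.5 times for LSEC-primed minus naive with median scaling (4), for LSEC-primed minus memory with cyclic loess (2) and with only the 2 groups compared (5), and for memory minus naive with cyclic loess, array weights, only the 2 groups compared or without memory sample 5 (4 in each). Median scaling moved the median difference of all named genes to 0.127 for LSEC-primed minus memory and to -0.115 for memory minus Teff, and the medians of the set to 0.744 and -2.35. It turned 4 differences: Acly (1.75) and Acss2 (0.46) for LSEC-primed minus memory, Lss for memory minus naive (-0.0515) and Acss2 for memory minus Teff (-1.01). The cause was not tested. The authors' processed values gave the same call for 191 of 192 differences, and no filter and no background correction for all 192. In these 3 settings all arrays also share 1 distribution, as in the main processing. Close agreement was therefore largely built in and says little about the choice of normalisation. Median scaling gave the same call for 172 and cyclic loess for 176. The stricter filter of 9 arrays left 174 differences to test, and all 174 kept their call. Without Teff sample 8 and LSEC-primed sample 4, whose labels differ from those of their groups, 22 genes were called for LSEC-primed minus Teff and 24 for Teff minus naive, and without memory samples 3 and 5 together 5 for memory minus naive. Adjusting over all probes without taking 1 per gene, chosen after seeing the data, kept all 192 for the brightest probes, and dimmer probes that differed stand beside their genes. In memory sample 5, 12 of 34 genes lay above background, which limits every memory result.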

Other observations

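Samples of a group did not rank alike for every gene, a pattern seen in the values and not tested. In the LSEC-primed group, sample 7 was highest and sample 14 lowest for Msmo1 (8.72 and 7.43), Hsd17b7 (8.38 and 7.47), Idi1 (7.32 and 5.97), Insig1 (8.52 and 7.07) and Scap (8.45 and 7.54). Sample 15 was highest of that group for Fdps (9.33), Sqle (9.12), Cyp51 (8.20), Dhcr7 (7.69) and Srebf2 (8.02), and sample 7 was lowest of it for Fdps (8.18), Cyp51 (6.85) and Dhcr7 (6.40). In the Teff group, samples 16 and 17 were below samples 6, 8 and 10 for Idi1, Insig1 and Stard4 and above them for Fdps (12.50 and 12.56), Mvd (9.01 and 8.70) and Fads2 (7.13 and 7.12).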
